A study of Mus musculus with 26 samples.

Results

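Lrrc15, Bmp8b, Htra3, Fabp3, Cntfr and Cdx1 are 6 mouse genes of the 18198 in the deposited table, and they were selected on their day 7 values, which were higher with a hairpin against Sap30 than in cultures with the same reprogramming factors, or those plus Jun, without it. The table covers 26 RNA-seq libraries, 2 for each of 13 groups. OSK-shSap30-D7 cells were fibroblasts given Pou5f1, Sox2 and Klf4 (OSK) by retrovirus and the hairpin by lentivirus, collected at day 7. OSK-cJun cells received Jun as well and were collected at days 0, 1, 3 and 7, and OSK cells received the 3 factors alone and were collected at days 0, 1, 3, 5 and 7. The remaining groups were induced pluripotent stem cells (iPSC, passages 5 to 8), embryonic stem cells (ESC, passages 20 to 24, from a CBA/CaJ and C57BL/6J cross) and mouse embryonic fibroblasts (MEF, passage 2). The labels give iPSC and ESC a medium with 2i and LIF, MEF a serum medium, and the infected cells iCD1 or a serum and LIF medium, without saying which library had which. None of the 26 libraries was labelled as a hairpin control, so the hairpin's target and its delivery cannot be told apart. The hairpin libraries were also numbered apart from all others in the series. Any difference in medium or processing cannot be told apart from the hairpin either. The infected cells were analysed as bulk cultures, in which fewer cells of a type and less RNA per cell cannot be told apart.

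Sap30 is a subunit of the Sin3 complex, which brings histone deacetylases to chromatin and is best known for repressing transcription. The 6 genes belong to no single pathway. Lrrc15 is a leucine-rich repeat membrane protein that marks fibroblasts exposed to TGF-beta, and Htra3 is a secreted serine protease that can dampen TGF-beta signalling in mouse. Cntfr is the ciliary neurotrophic factor receptor, a membrane-anchored protein that signals through gp130 and the LIF receptor. Fabp3 carries fatty acids inside heart and muscle cells, Cdx1 is a caudal-type homeobox factor of the posterior embryo and the intestine, and Bmp8b is a secreted BMP ligand with roles in germ cell formation and brown fat in mouse.

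RefSeq promoter entries (GRCm38.p6), matched by symbol, were used for 5 of the 6 genes. They gave 1 start each for Lrrc15, Htra3, Bmp8b and Fabp3 and 6 for Cntfr. Cdx1 was left out of the promoter search, so its motifs were not tested. The 250 bases before the start are shown for 3 genes with unlike patterns: Lrrc15 and Htra3, which were high with added Jun as well as with the hairpin, and Bmp8b, which was high with the hairpin and with nothing else. The windows are chr16:30283255-30283504 (minus strand) for Lrrc15, chr5:35679781-35680030 (minus strand) for Htra3 and chr4:123104911-123105160 (plus strand) for Bmp8b. Capitals mark the AP-1 motif TGANTCA and the Klf-type motif GGGNGGG on either strand.
Lrrc15: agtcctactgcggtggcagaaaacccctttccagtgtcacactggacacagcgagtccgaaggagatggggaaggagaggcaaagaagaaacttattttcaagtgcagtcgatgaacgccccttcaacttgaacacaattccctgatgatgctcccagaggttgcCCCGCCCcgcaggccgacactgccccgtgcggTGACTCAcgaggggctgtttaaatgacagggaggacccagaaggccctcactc
Htra3: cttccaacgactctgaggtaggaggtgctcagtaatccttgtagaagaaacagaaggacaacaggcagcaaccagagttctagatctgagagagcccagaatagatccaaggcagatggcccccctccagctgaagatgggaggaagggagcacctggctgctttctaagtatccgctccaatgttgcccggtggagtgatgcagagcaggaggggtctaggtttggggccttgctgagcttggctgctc
Bmp8b: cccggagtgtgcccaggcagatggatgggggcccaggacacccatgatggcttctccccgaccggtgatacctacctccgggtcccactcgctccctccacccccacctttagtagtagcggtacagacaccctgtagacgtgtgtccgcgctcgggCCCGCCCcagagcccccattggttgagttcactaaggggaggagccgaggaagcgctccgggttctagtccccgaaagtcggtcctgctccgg
The AP-1 motif, bound by Jun dimers, was in the Lrrc15 window at 1 place and at 0 places in the Htra3, Bmp8b, Fabp3 and Cntfr windows. Of all 32851 promoter windows of this length 6.75% held it. GGGNGGG was at 1 place each in Lrrc15, Bmp8b and Fabp3 and at 0 places in Htra3, and at 0 to 6 places in the Cntfr windows, with 44.8% of all windows holding it. TATAAA was in none of these windows (12.4% of all), and CCAAT was in those of Bmp8b and Htra3 (33.8% of all). Each motif was searched on both strands, and none overlapped another in the windows shown. These are matches of letters and were not tested for binding.

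All values below are whole numbers on the scale the authors deposited. Their sorted values were nearly identical between libraries, so sequencing depth is unknown and values of different genes are not compared. Replicate libraries correlated at 0.925 (MEF) to 0.96 (iPSC) over the 16038 genes tested. Nothing in the labels tells whether the replicates came from separate cultures, so p-values measure only the spread between these libraries, which may be technical. Sap30 itself stood at 20 and 41 in OSK-shSap30-D7, against 301 and 378 in OSK-D7, and fell by 3.51 on the log2 scale (SE 0.32, adjusted p = 1.33e-05 from limma, a linear model over all genes). With spread estimated from these 4 libraries alone the adjusted p was 0.112. In OSK-cJun-D7 Sap30 was 74 and 93, and OSK-shSap30-D7 differed from it by -1.50 (SE 0.32, adjusted p = 0.00307 from limma). Without the hairpin Sap30 rose along the OSK course, from 82 and 91 in OSK-D0 to 148 and 207 in OSK-D5. MEF had 67 and 36, so the higher hairpin library (41) was above 1 MEF library. The difference from OSK-D7 thus includes that rise, and the depth of the knockdown itself was not tested. Fibroblast markers summed to 71754 and 76115 in MEF, and pluripotency markers to 26061 and 26625 in ESC.

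The genes lie apart in the mouse genome (GRCm38), and all 6 are protein coding. Lrrc15 (ENSMUSG00000052316) is at chr16:30269302-30283256 on the minus strand, Htra3 (ENSMUSG00000029096) at chr5:35652023-35679782 on the minus strand and Cdx1 (ENSMUSG00000024619) at chr18:61018862-61036199 on the minus strand. The other three are on chromosome 4, Cntfr (ENSMUSG00000028444) at chr4:41657498-41697089 on the minus strand, Bmp8b (ENSMUSG00000002384) at chr4:123105165-123132099 on the plus strand and Fabp3 (ENSMUSG00000028773) at chr4:130308595-130315463 on the plus strand.

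At day 7 the 6 genes differed in which cultures they exceeded. In OSK-shSap30-D7 both libraries were above both OSK-D7 libraries for 5 of the 6 genes, and above both OSK-cJun-D7 libraries for 6 of 6. These are the values that chose the genes, so they are given as a description without a test, beside 24.5% and 28.1% of all tested genes that met the same conditions. Fold differences here are log2 differences of the mean of log2(value + 1), with the SE of the fit.

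Lrrc15 was 67 and 96 in OSK-shSap30-D7, against 46 and 65 in OSK-cJun-D7 and 4 and 1 in OSK-D7. Htra3 was 77 and 120 in OSK-shSap30-D7, against 33 and 66 in OSK-cJun-D7 and 5 and 3 in OSK-D7. These 2 genes of the fibroblast surface and matrix were therefore far above OSK-D7, by 4.68 (SE 0.43) for Lrrc15 and 4.31 (SE 0.55) for Htra3, and only just above OSK-cJun-D7, by 0.54 (SE 0.43) and 1.03 (SE 0.55).

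Cntfr was 75 and 84 in OSK-shSap30-D7, against 0 and 1 in OSK-cJun-D7 and 26 and 14 in OSK-D7. Cdx1 was 85 and 62 in OSK-shSap30-D7, was listed at 0 in both OSK-cJun-D7 libraries, and was 63 and 18 in OSK-D7. The pattern was the other way round in these 2 genes, which stood further from OSK-cJun-D7 than from OSK-D7. Cntfr was above OSK-D7 by 2.00 (SE 0.79) with no overlap, and Cdx1 by 1.08 (SE 0.69) with overlap. Cdx1 marks the edge of the set, since its lower hairpin library (62) was below the higher OSK-D7 library (63).

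Fabp3 was 73 and 160 in OSK-shSap30-D7, against 2 and 3 in OSK-cJun-D7 and 4 and 7 in OSK-D7. Bmp8b was 70 and 82 in OSK-shSap30-D7, against 0 and 1 in OSK-cJun-D7 and 1 and 2 in OSK-D7. Both genes were near the floor of the scale in all 4 libraries without the hairpin. Fabp3 was above OSK-D7 by 4.11 (SE 0.58) and Bmp8b by 4.97 (SE 0.70), and these sizes move with the number added before the log (3.45 and 3.64 with 5 added). Ranked by this difference among 16038 genes, Bmp8b was at rank 12, Lrrc15 at 22, Htra3 at 33, Fabp3 at 36, Cntfr at 550 and Cdx1 at 1683.

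**Figure D1:**
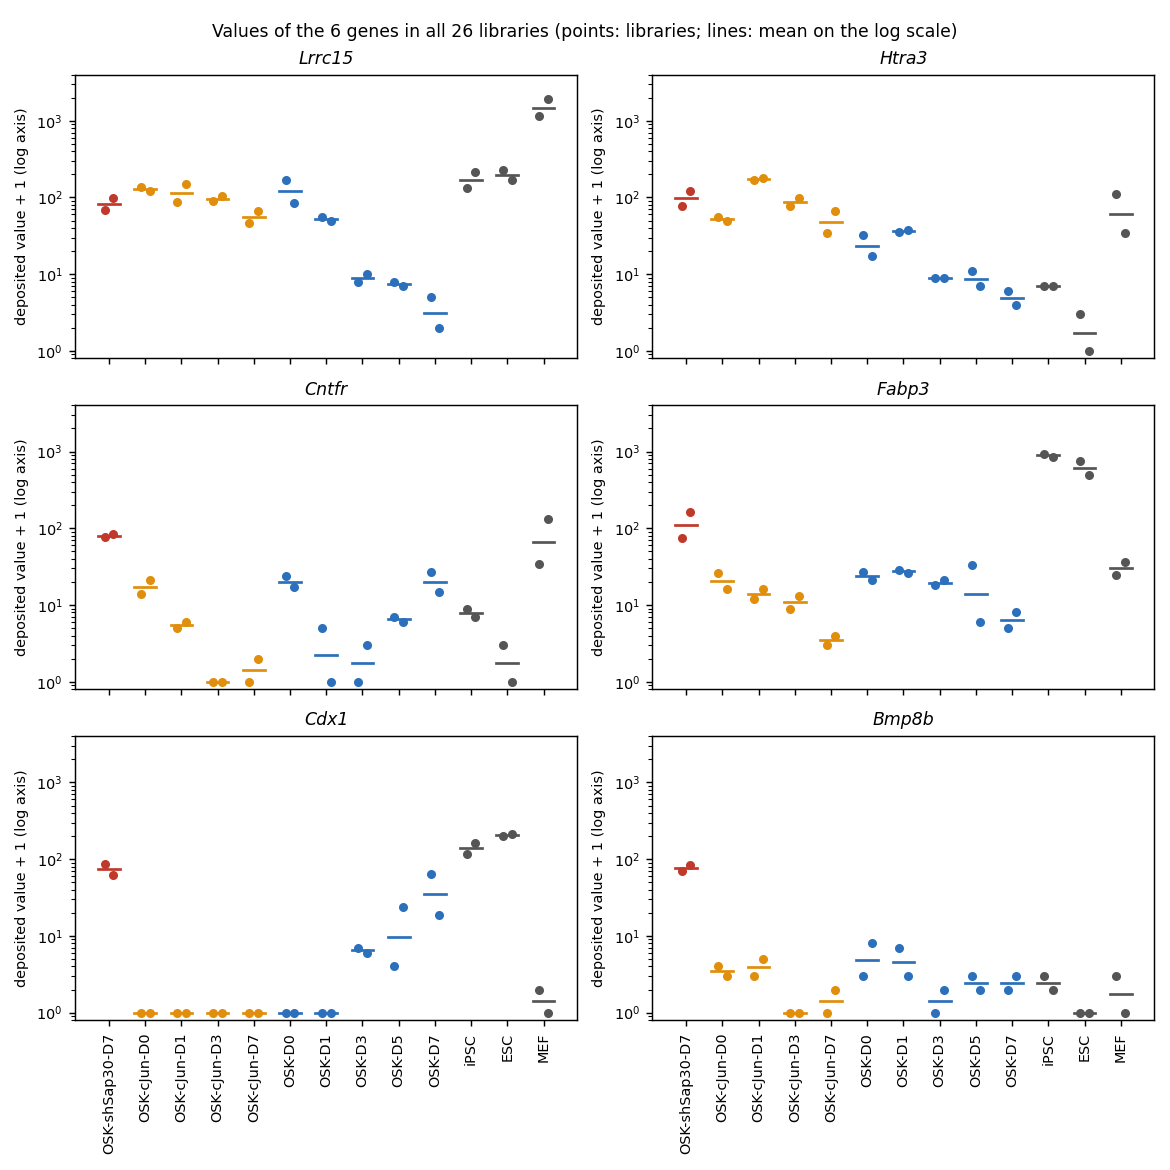
Deposited value plus 1 on a log axis for each gene in the 13 groups, with a point for each of the 2 libraries and a line at their mean on the log scale. Bmp8b stands apart only in OSK-shSap30-D7 (70 and 82), while Lrrc15 is highest in MEF and Fabp3 and Cdx1 are highest in iPSC and ESC.

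The remaining groups were not used to choose the genes and could be tested, with a call at an adjusted p below 0.05 from limma and a log2 difference of at least 1. Of the 6 genes, 5 had passed the filter on low values through groups other than the hairpin one, and Bmp8b had passed it through the 2 hairpin libraries alone. Against MEF, 3 of the 6 were lower in ESC and 2 were higher, and 43.0% of all tested genes were called in either direction. The iPSC comparison with the same MEF libraries gave 3 lower and 2 higher as well, with 40.0% of all genes called. These shares rest on 6 genes. Bmp8b stays in the counts here and below without a call, so only 5 genes can contribute to them.

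Lrrc15 was a fibroblast gene that fell early. It stood at 170 and 84 in OSK-D0, against 1139 and 1900 in MEF, and fell by 3.61 on the log2 scale (SE 0.43, adjusted p = 3.17e-05 from limma). The libraries of these groups did not overlap. Lrrc15 was the 1 gene of the 6 called in that comparison, where 6.98% of all genes were, and with spread estimated from MEF and OSK-D0 alone the adjusted p was 0.0926. Later libraries of the course had 55 and 49 in OSK-D1, 7 and 9 in OSK-D3, and 7 and 6 in OSK-D5. OSK-D3 was lower than OSK-D0 by 3.75 (log2 difference -3.75, SE 0.43, adjusted p = 5.97e-06 from limma), and OSK-D5 was lower than the same OSK-D0 libraries by a like amount (log2 difference -4.01, SE 0.43, adjusted p = 2.6e-06 from limma). In the day 3 comparison 2 of the 6 genes were called lower and 1 higher, with 17.2% of all genes called in either direction, and in the day 5 comparison 1 and 1, with 19.7%.

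With added Jun no fall of Lrrc15 was called between days 0 and 3. Lrrc15 stood at 135 and 119 in OSK-cJun-D0, 85 and 150 in OSK-cJun-D1 and 88 and 103 in OSK-cJun-D3. The change from day 0 to day 3 was -0.41 (SE 0.43, 95% interval -1.31 to 0.49, adjusted p = 0.592 from limma). At day 3 OSK-cJun was above OSK by 3.43 (SE 0.43, adjusted p = 6.65e-05 from limma), with no overlap of libraries. In that comparison 2 of the 6 genes were called higher and 1 lower, with 7.54% of all genes called in either direction. The interaction, which tests whether the day 0 to day 3 change differed with added Jun, was 3.34 for Lrrc15 (SE 0.61, adjusted p = 0.0129 from limma), and 1 of the 6 genes was called in it, against 1.12% of all genes. Leaving out OSK-D0 replicate 1, OSK-D3 replicate 1, OSK-cJun-D0 replicate 2 or OSK-cJun-D3 replicate 2 took the interaction's adjusted p to 0.0504 to 0.0702, at differences of 2.84 to 3.25.

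Stem cells kept a middle level of Lrrc15. It was 133 and 214 in iPSC, 226 and 166 in ESC, against the MEF values of 1139 and 1900, a difference of -3.12 for iPSC (SE 0.43, adjusted p = 1.2e-05 from limma) and -2.92 for ESC (SE 0.43, adjusted p = 1.71e-05 from limma). iPSC and ESC overlapped, with a difference of -0.20 (95% interval -1.10 to 0.70, adjusted p = 0.918 from limma). The OSK-shSap30-D7 values of 67 and 96 were thus below those of both kinds of stem cell, and those of OSK at days 3, 5 and 7 (1 to 9) were lower still.

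Htra3, the secreted protease, was higher with added Jun. OSK-cJun-D1 had 169 and 179 and OSK-D1 34 and 37, while OSK-cJun-D3 had 77 and 96 and OSK-D3 8 and 8. At day 3 the difference was 3.27 (SE 0.55, adjusted p = 0.000912 from limma), and the day 1 values, which did not overlap, were left untested. Day 0 values were 54 and 49 in OSK-cJun and 31 and 16 in OSK, day 5 values in OSK were 10 and 6, and the interaction of 2.10 (SE 0.78, adjusted p = 0.28 from limma) was not called. OSK-D0 (31 and 16) differed from MEF (109 and 33) by -1.39 (SE 0.55, adjusted p = 0.141 from limma), which became a call of -2.24 (adjusted p = 0.0339) without MEF replicate 2. Htra3 in the highest library of the OSK-cJun course, 179, was above every other library of the table.

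Htra3 was low in stem cells, at 6 and 6 in iPSC and 2 and 0 in ESC, against 109 and 33 in MEF. The difference from MEF was -3.13 for iPSC (SE 0.55, adjusted p = 0.000154 from limma) and -5.14 for ESC (SE 0.55, adjusted p = 4.88e-07 from limma). iPSC exceeded ESC by 2.01 (SE 0.55, adjusted p = 0.033 from limma) at values near the floor, and Htra3 was the 1 gene of the 6 called there, against 6.22% of all genes. Fibroblast markers summed to 7000 and 12996 in iPSC and to 127 and 541 in ESC, and their part in this result was not tested. That call was lost without ESC replicate 2 (1.22, adjusted p = 0.361) or either iPSC library (adjusted p of 0.126 and 0.167), and with 5 added in place of 1 (0.89, adjusted p = 0.256).

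Cntfr, the receptor gene, fell in the first days of both courses. By day 7 it stood at 26 and 14 in OSK and at 0 and 1 in OSK-cJun. It was 23 and 16 in OSK-D0, 4 and 0 in OSK-D1, 0 and 2 in OSK-D3, 6 and 5 in OSK-D5. OSK-D3 fell by 3.54 against OSK-D0 (SE 0.79, adjusted p = 0.00308 from limma), a call lost without OSK-D3 replicate 1 (-2.75, adjusted p = 0.0589). At day 5 the difference from day 0 was -1.64 (SE 0.79, adjusted p = 0.141 from limma). OSK-cJun-D0 had 13 and 20, OSK-cJun-D1 had 4 and 5, and the gene was listed at 0 in both OSK-cJun-D3 libraries. It was the 1 gene of the 6 called between OSK-cJun-D3 and OSK-cJun-D0, and it fell (adjusted p = 0.00128 from limma, with 14.3% of all genes called).

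The 2 hairpin libraries of Cntfr, 75 and 84, were above 23 of the 24 other libraries, and the exception was a MEF library. iPSC had 8 and 6 and ESC 2 and 0, against 33 and 132 in MEF, a wide spread. Both kinds of stem cell were lower than MEF, iPSC by a log2 difference of -3.08 (SE 0.79, adjusted p = 0.00347 from limma) and ESC by -5.28 (SE 0.79, adjusted p = 2.15e-05 from limma). The iPSC call was lost without MEF replicate 2 (-2.10, adjusted p = 0.0744) and with 0.1 added (-3.23, adjusted p = 0.128).

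Fabp3, the fatty acid carrier, was a stem cell gene in this table. It was 942 and 841 in iPSC and 754 and 498 in ESC, against 24 and 35 in MEF, higher by 4.89 in iPSC (SE 0.58, adjusted p = 2.3e-06 from limma) and by 4.35 in ESC (SE 0.58, adjusted p = 5.45e-06 from limma). The OSK course did not approach those levels, with 26 and 20 in OSK-D0, 28 and 25 in OSK-D1, 17 and 20 in OSK-D3 and 32 and 5 in OSK-D5. The day 3 difference from day 0 was -0.29 (95% interval -1.51 to 0.92, adjusted p = 0.786 from limma). The day 5 difference was -0.76 (adjusted p = 0.364 from limma), and it rested on which library was kept, at -1.99 without OSK-D5 replicate 1 (adjusted p = 0.00848) and 0.47 without OSK-D5 replicate 2. OSK-cJun-D0 had 25 and 15, OSK-cJun-D1 11 and 15 and OSK-cJun-D3 8 and 12. The OSK-shSap30-D7 values of 73 and 160 lay between those of every infected culture without the hairpin and those of the stem cells.

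Cdx1, the homeobox factor, appeared late in the OSK course and not with added Jun. It was listed at 0 in all libraries of OSK-D0 and OSK-D1, and was 6 and 5 in OSK-D3 and 3 and 23 in OSK-D5. The differences of OSK-D3 (adjusted p = 0.00813 from limma) and OSK-D5 (adjusted p = 0.00171 from limma) from the same OSK-D0 libraries were called, and no fold is given against a group listed at 0. The day 3 call rested on small values and was lost with 5 added (adjusted p = 0.119), without OSK-D3 replicate 1 (adjusted p = 0.0564) and with spread from the compared groups alone (adjusted p = 0.0513), as was the day 5 call in the last case (adjusted p = 0.127). All 8 libraries of OSK-cJun were listed at 0, and at day 3 the gene was called lower than in OSK (adjusted p = 0.0178 from limma), a call lost without any 1 of the 4 libraries (adjusted p of 0.0813 to 0.109).

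Cdx1 was 117 and 161 in iPSC and 198 and 214 in ESC, against 1 and 0 in MEF, higher by 6.61 in iPSC (SE 0.69, adjusted p = 6.09e-07 from limma) and by 7.19 in ESC (SE 0.69, adjusted p = 1.19e-07 from limma). With MEF near 0 the number added sets these sizes, at 8.69 for iPSC and 9.28 for ESC with 0.1 added and 4.70 and 5.27 with 5 added, and both were called each time. The OSK-shSap30-D7 values of 85 and 62 were below all 4 stem cell libraries. iPSC and ESC differed by -0.58 (95% interval -2.03 to 0.87, adjusted p = 0.757 from limma).

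Bmp8b, the BMP ligand, was between 0 and 7 in all 24 libraries without the hairpin. OSK-cJun-D0 had 3 and 2, OSK-cJun-D1 2 and 4 and OSK-cJun-D3 0 and 0. OSK-D0 had 2 and 7, OSK-D1 6 and 2, OSK-D3 0 and 1 and OSK-D5 2 and 1. iPSC had 2 and 1, ESC 0 and 0 and MEF 2 and 0. It was the 1 gene of the 6 for which both hairpin libraries were above all 24 others, as they were for 1.65% of the genes tested. Without the hairpin libraries Bmp8b would not have passed the filter on low values, so the comparisons among the other groups say nothing about it and no test is given.

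Bmp8b has a close relative, Bmp8a, at chr4:123312645-123343252, and the counting could have split reads between them. Of the windows of 75 bases in the Bmp8b-201 transcript, 5.55% were also found unchanged in a Bmp8a transcript, and of windows of 36 bases 8.67% were. Bmp8a was 3 and 4 in OSK-shSap30-D7 and 1 and 0 in OSK-D7. On the opposite strand Ppie, a peptidyl-prolyl isomerase gene, shares 133 of the 3880 annotated exon bases of Bmp8b, and the labelled kit keeps no record of strand, so reads from the shared bases cannot be told apart. Ppie was 85 and 99 in OSK-shSap30-D7, against 136 and 151 in OSK-D7 and 81 and 91 in OSK-cJun-D7. Its difference from OSK-D7 was not called (adjusted p = 0.0675 from limma), and the part of shared reads in Bmp8b was not tested. Zcchc17 overlaps 81 of 823 exon bases of Fabp3 in the same way, and stood at 94 and 133 in OSK-shSap30-D7, against 131 and 131 in OSK-D7.

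**Figure D2:**
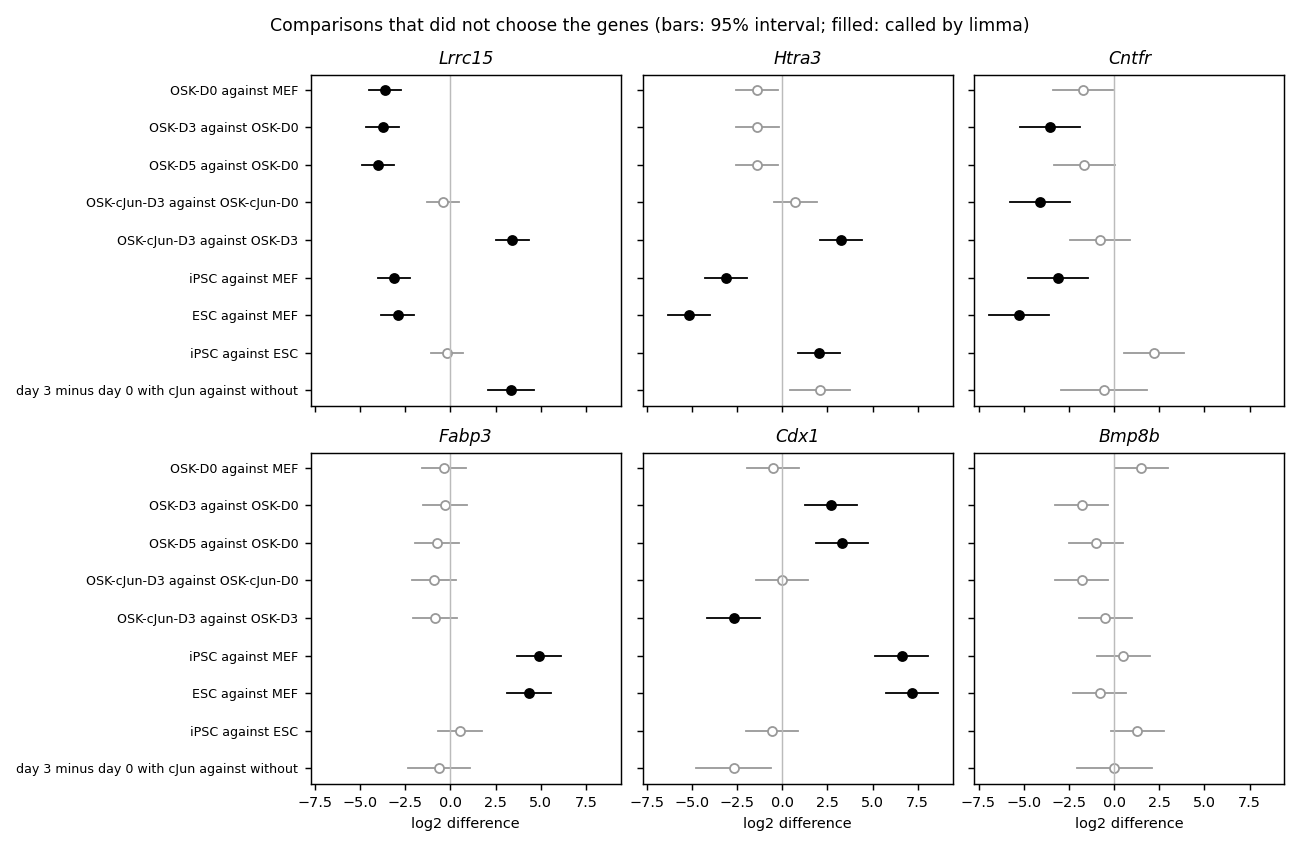
Log2 differences of the 6 genes in the 9 comparisons that did not choose them, with 95% intervals and filled points for limma calls. Lrrc15, Htra3 and Cntfr lie left of 0 in ESC and iPSC against MEF while Fabp3 and Cdx1 lie right of it. The Bmp8b points and intervals are drawn but say nothing, since that gene passed the filter through the hairpin libraries alone. Differences against groups listed at 0 depend on the 1 added before the log.

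Genes on either side of the 6 were looked at after their values had been seen. Within 50 kb, 16 other genes were in the table and 15 were tested, of which 2 were called higher in OSK-shSap30-D7 than in OSK-D7 and 0 lower (4.93% and 4.92% of all genes were called), with 4712 of all genes at an unadjusted p under 0.05. Both flank Htra3. Acox3, an enzyme of peroxisomal fatty acid oxidation, was 269 and 231 in OSK-shSap30-D7, against 91 and 123 in OSK-D7, and rose by 1.23 (SE 0.23, adjusted p = 0.00218 from limma). Sh3tc1 was 27 and 41, against 8 and 6 in OSK-D7, and rose by 2.11 (SE 0.67, adjusted p = 0.0431 from limma), a call lost without any 1 of the 4 libraries (1.82 to 2.40). Next to Cntfr, the gp130 receptor gene Il11ra1 was 32 and 40 in OSK-shSap30-D7, against 44 and 37 in OSK-D7. Next to Cdx1, the growth factor receptor gene Pdgfrb was 62 and 24, against 32 and 8 in OSK-D7 (adjusted p = 0.159 from limma).

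Other genes of the pathways to which the 6 belong were described from 14 lists. The lists were chosen with earlier results of these data known. A share above that of all genes may therefore come from the choice, and the counts are a description. Of 111 tested list members, 15 rose and 2 fell in OSK-shSap30-D7 against OSK-D7, where 4.93% and 4.92% of all genes did. With spread estimated from these 4 libraries alone 0 of them passed, and without OSK-D7 replicate 2 or OSK-shSap30-D7 replicate 2 the total of 17 became 7 or 10. Against OSK-cJun-D7, where 6.91% of all genes were called higher and 7.22% lower, 13 list members were higher and 12 lower. These were mostly other genes. Of the 15 that rose against OSK-D7, only Cthrc1 and Lrrc8a were also called higher than in OSK-cJun-D7. Lpl was called lower there, and the rest of the 15 were not called there, so most of these rises are shown against OSK-D7 alone. The median difference of all genes from OSK-D7 was -0.0069.

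Among BMP ligands 1 of 7 tested was called higher. Bmp6 was 24 and 17 in OSK-shSap30-D7, against 4 and 4 in OSK-D7 (difference 2.08, SE 0.66, adjusted p = 0.0427 from limma), a call lost without any 1 of the 4 libraries. The median of the 7 was 1.66, which is the difference of Bmp8a, a gene near the floor (3 and 4, against 1 and 0 in OSK-D7). Bmp4, Bmp5 and Bmp7 had differences below 0, so the ligands had no common direction. Of 10 receptors and Smads, with a median of 0.45, 3 rose and 0 fell. Bmpr2, a type II receptor, was 751 and 912 in OSK-shSap30-D7, against 408 and 321 in OSK-D7, higher by 1.19 (SE 0.23, adjusted p = 0.00232 from limma), and it kept its call without each of the 4 libraries in turn. Bmpr1b was 4 and 6 against a listed 0 in OSK-D7 (adjusted p = 0.0143 from limma) and the activin receptor Acvr2b was 8 and 13 against 5 and 2 in OSK-D7 (adjusted p = 0.0419 from limma), and both calls were lost without OSK-D7 replicate 2 or OSK-shSap30-D7 replicate 2.

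Of 8 BMP inhibitors, with a median of 0.61, 1 was called higher and 0 lower. Grem1, a secreted BMP antagonist, was 225 and 417 in OSK-shSap30-D7, against 46 and 12 in OSK-D7, higher by 3.64 (SE 0.85, adjusted p = 0.0101 from limma), and this was lost without OSK-D7 replicate 2 or OSK-shSap30-D7 replicate 2 (2.71 at the lowest). The Id genes, transcribed in response to BMP, had 0 of 4 called and a median of -0.02. Id3 was 466 and 121 in OSK-shSap30-D7, against 401 and 423 in OSK-D7, so the hairpin libraries lay on either side.

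Of 8 gp130 cytokines (median 0.29) 1 was called higher and 1 lower. Clcf1, a ligand of the receptor complex that holds Cntfr, was 51 and 25 in OSK-shSap30-D7, against 6 and 3 in OSK-D7, higher by 2.80 (SE 0.69, adjusted p = 0.0127 from limma), lost without OSK-D7 replicate 2 or OSK-shSap30-D7 replicate 1. Osm, oncostatin M, was 1 and 0, against 11 and 7 in OSK-D7 (adjusted p = 0.0357 from limma), lost without any 1 library. Of 10 receptors and signalling genes (median 0.54), 1 was called higher and 0 lower. Il6ra, the interleukin 6 receptor, was 942 and 880 in OSK-shSap30-D7, against 378 and 282 in OSK-D7, higher by 1.48 (SE 0.24, adjusted p = 0.000743 from limma), and kept its call without each of the 4 libraries in turn.

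For fatty acid handling 2 of 13 tested genes rose and 1 fell, with a median of -0.01. Lpl, the lipoprotein lipase gene, was 376 and 690 in OSK-shSap30-D7, against 136 and 97 in OSK-D7, higher by 2.14 (SE 0.37, adjusted p = 0.00135 from limma). The transporter Slc27a4 was 509 and 482, against 251 and 228 in OSK-D7 (difference 1.05, SE 0.21, adjusted p = 0.00419 from limma), and the acyl-CoA synthetase Acsl1 was 120 and 101, against 322 and 235 in OSK-D7 (difference -1.31, SE 0.29, adjusted p = 0.00651 from limma). The Slc27a4 call was lost without OSK-D7 replicate 2 and that of Acsl1 without OSK-shSap30-D7 replicate 2. Of the relatives of Fabp3, Fabp5 was 619 and 596, against 498 and 527 in OSK-D7, and Fabp7 was 89 and 102, against 130 and 163 in OSK-D7, and neither was called. Against OSK-cJun-D7 the list had 3 genes higher and 3 lower. Fabp5 (198 and 189 in OSK-cJun-D7) was higher by 1.65 (adjusted p = 0.00111 from limma). Lpl (2154 and 1593 in OSK-cJun-D7) was lower there, by a difference of -1.86 (adjusted p = 0.00205 from limma), although it was higher than in OSK-D7. Acsl1 (896 and 781 in OSK-cJun-D7) was lower than in both, with a difference of -2.91 (adjusted p = 7.2e-06 from limma).

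Of the proteases related to Htra3, 1 of 2 tested was called higher. Htra1 was 239 and 274 in OSK-shSap30-D7, against 131 and 56 in OSK-D7 (difference 1.57, SE 0.47, adjusted p = 0.034 from limma), lost without OSK-D7 replicate 2 or either hairpin library. Of 8 TGF-beta ligands, receptors and binding proteins (median 0.56), 2 were called higher and 0 lower. The ligand Tgfb1 and the binding protein Ltbp1 had differences below 0, so the list had no common direction. Against OSK-cJun-D7, 1 of the list was called higher (Tgfb2) and 2 lower (Tgfb1 and Ltbp1). The type I receptor Tgfbr1 was 510 and 358 in OSK-shSap30-D7, against 133 and 136 in OSK-D7, higher by 1.66 (SE 0.30, adjusted p = 0.00156 from limma), and kept its call without each library in turn. The co-receptor Tgfbr3 was 19 and 20, against 4 and 3 in OSK-D7 (difference 2.20, SE 0.59, adjusted p = 0.0193 from limma), lost without OSK-D7 replicate 2 or either hairpin library.

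Myofibroblast genes, with which Lrrc15 is usually found, had 2 of 11 called higher, 0 lower and a median of 0.63. Acta2 (26 and 113 in OSK-shSap30-D7, against 119 and 103 in OSK-D7), Col3a1 and Fap had differences below 0. The list thus had no common direction. Cthrc1, a secreted glycoprotein, was 19 and 10 in OSK-shSap30-D7, against 5 and 4 in OSK-D7 (adjusted p = 0.0298 from limma), and the metalloprotease Adam12 was 67 and 105, against 45 and 20 in OSK-D7 (adjusted p = 0.0453 from limma). Each was lost in 3 of the 4 fits that left out a library. Of 6 leucine-rich repeat relatives of Lrrc15 (median 0.12), 1 was called higher. Lrrc8a, a subunit of a volume-regulated anion channel, was 298 and 605, against 131 and 115 in OSK-D7 (difference 1.78, SE 0.29, adjusted p = 0.00081 from limma), and kept its call without each library in turn.

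Few genes that work beside Cdx1 could be tested. In the posterior patterning list 2 of 7 passed the filter and 0 were called, with T, the brachyury gene, at 9 and 16 in OSK-shSap30-D7, against 2 and 0 in OSK-D7 (adjusted p = 0.0536 from limma). That value sat at the threshold, with an adjusted p of 0.0459 with no filter, 0.0478 with no trend or robust moderation and 0.0475 without OSK-D7 replicate 1. T was listed at 0 in both OSK-cJun-D7 libraries and was called higher than there (adjusted p = 0.0123 from limma). In the intestinal list 0 of 4 tested were called and the median was -0.07, with the cadherin Cdh17 at 5 and 8 in OSK-shSap30-D7, against 10 and 5 in OSK-D7. Against OSK-cJun-D7, where Cdx1 was listed at 0, 2 of the 4 were called lower. Krt20, an intestinal keratin, was 11 and 9 in OSK-shSap30-D7, against 321 and 237 in OSK-cJun-D7 (difference -4.66, adjusted p = 2.49e-05 from limma), and Cdh17 was 645 and 47 in OSK-cJun-D7 (difference -4.58, adjusted p = 0.0254 from limma). Of 18 Sin3 complex genes other than Sap30, 0 were called and the median was -0.17. Hdac1, a deacetylase of the complex named here after its values were seen, was 581 and 715 in OSK-shSap30-D7, against 1265 and 1191 in OSK-D7. Its difference of -0.93 (SE 0.17, adjusted p = 0.00158 from limma) missed a call on its size alone. Rbbp7, a histone-binding subunit, was 2464 and 1857 in OSK-shSap30-D7, against 2306 and 3263 in OSK-D7.

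**Figure D3:**
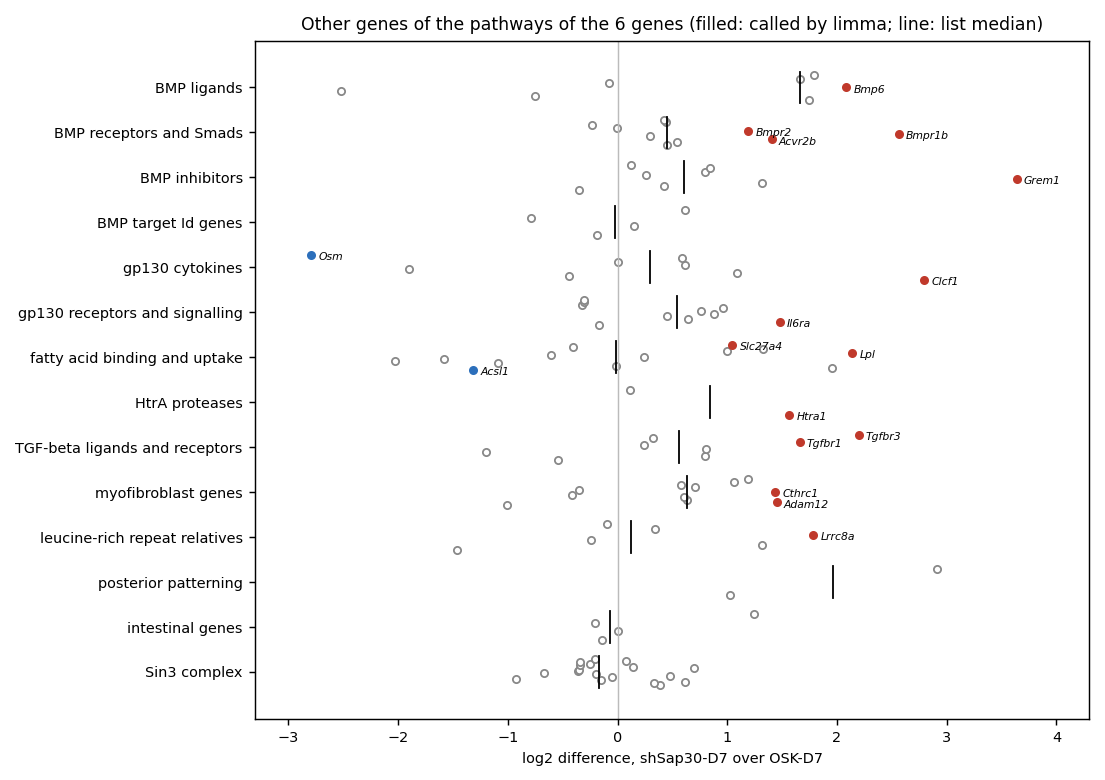
Log2 differences of the tested list members between OSK-shSap30-D7 and OSK-D7, with a row for each list, filled and named points for limma calls and a line at the list median. Grem1 lies furthest to the right at 3.64 and Osm furthest to the left at -2.79, and none of the 18 Sin3 genes is a call, with Hdac1 at -0.93.

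Cell type markers were set beside these results. Fibroblast markers summed to 6373 and 7459 in OSK-shSap30-D7, against 35203 and 35913 in OSK-cJun-D7 and 11056 and 11772 in OSK-D7, with 0 of 8 called against OSK-D7 and none at 0. The collagen gene Col1a2, at 3419 and 4318 in OSK-shSap30-D7, against 6942 and 8993 in OSK-D7, made up most of the sum. Of the 8 markers 5 had a difference from OSK-D7 above 0 and 3 below 0, so the list had no common direction. Against OSK-cJun-D7, 1 of the 8 was called higher and 3 lower. Pluripotency markers summed to 857 and 1006 in OSK-shSap30-D7, against 165 and 247 in OSK-cJun-D7 and 1743 and 2320 in OSK-D7. Of these 8 markers, 3 fell and 0 rose against OSK-D7, with Nanog at 6 and 27 against 111 and 179, Zfp42 at 21 and 17 against 85 and 111 and Dppa5a at 11 and 3 against 45 and 62 (adjusted p of 0.0128, 0.00768 and 0.0102 from limma). The differences from OSK-D7 were below 0 for all 8 markers, called or not. The 3 called stem cell genes stood lower than in OSK-D7 while Fabp3 stood higher and Cdx1 overlapped. Against OSK-cJun-D7, 4 of the 8 pluripotency markers were called higher and 0 lower.

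Epithelial markers summed to 1997 and 2143 in OSK-shSap30-D7, against 3602 and 5973 in OSK-D7, with 0 of 7 called. Their differences from OSK-D7 were below 0 for 6 and above 0 for 1. Endothelial markers summed to 711 and 946, against 317 and 496 in OSK-D7. Of 3 tested 1 was called higher, the receptor Kdr at 87 and 254 against 16 and 8 in OSK-D7 (adjusted p = 0.0316 from limma). Tek, at 608 and 672 against 287 and 465 in OSK-D7, made up most of the sum and was not called. Pecam1 went the other way, at 10 and 17 against 12 and 23 in OSK-D7. Neural markers summed to 3225 and 3353, against 1446 and 2339 in OSK-D7. Of 4 tested 1 was called higher, Neurod1 at 7 and 17 against 3 and 0 in OSK-D7 (adjusted p = 0.0424 from limma). Nefl, at 3034 and 2797 against 1905 and 965 in OSK-D7, made up most of the sum and was not called. Map2 went the other way, at 217 and 210 against 286 and 389 in OSK-D7. Muscle markers, which bear on Fabp3, summed to 13 and 14 in OSK-shSap30-D7, against 8 and 15 in OSK-D7, and adipocyte markers to 11 in both hairpin libraries, against 2 and 6 in OSK-D7. Keratinocyte, trophoblast and blood markers had 0 called against OSK-D7, and the blood markers Adgre1 and Tyrobp were at 0 in both hairpin libraries. The part of these cell type differences in the values of the 6 genes was not tested.

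**Figure D4:**
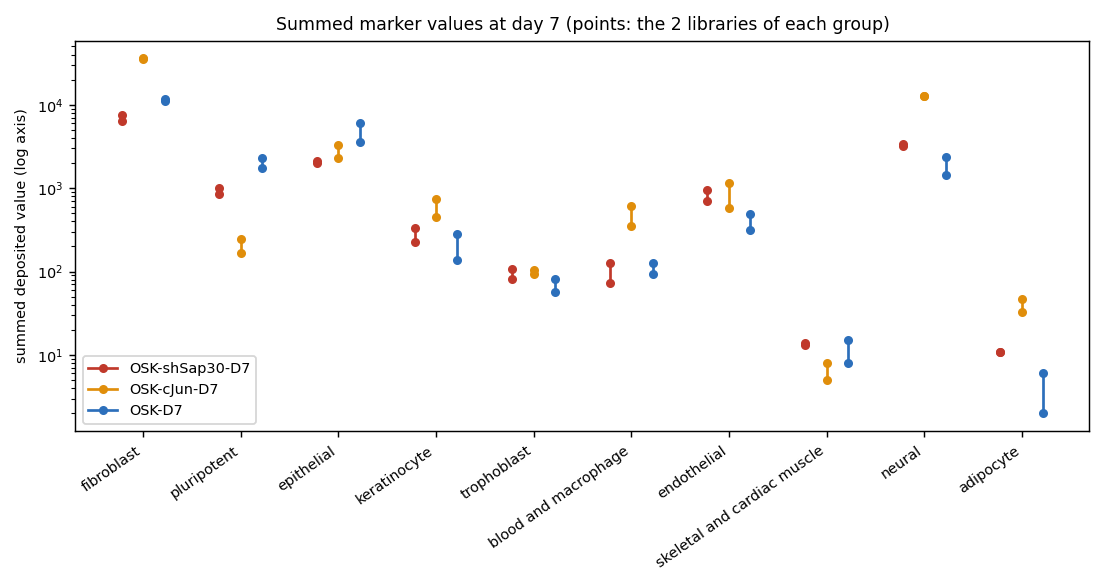
Summed deposited values of the marker lists at day 7 on a log axis, with the 2 libraries of each group joined by a line. OSK-shSap30-D7 has the lowest fibroblast sum (6373 and 7459) of the 3 groups, though 5 of the 8 fibroblast markers were above OSK-D7 and none was called, and it has a pluripotency sum (857 and 1006) between those of OSK-cJun-D7 and OSK-D7.

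The genes with the most similar pattern were found by Pearson correlation of log2(value + 1) over the 26 libraries, which share their processing and include the hairpin libraries that chose the 6 genes, so the coefficients are a description. Cdx1 was closest to Nr5a2 (r = 0.969), Nkx1-2 (0.956) and Dkc1 (0.955), and Fabp3 to Dennd2c (0.94), Fem1b (0.919) and Nexmif (0.917). Htra3 was closest to Rin1 (0.929), Gfod1 (0.895) and Klk8 (0.893), and Lrrc15 to Adamts9 (0.883), Trim66 (0.879) and Dse (0.867). Cntfr was closest to Ephb2 (0.88), its neighbour Enho (0.863) and Btg2 (0.849). Bmp8b, with a pattern set by 2 libraries, was closest to Snx16 (0.838), Slco6d1 (0.827) and Lpar6 (0.805).

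Of these 18 genes, 14 had both OSK-shSap30-D7 libraries above both OSK-D7 libraries, beside 24.5% of all tested genes. Their likeness to the 6 genes in part builds this in. Nr5a2, a nuclear receptor, was 86 and 135 in OSK-shSap30-D7, against 126 and 54 in OSK-D7, and so overlapped as Cdx1 did. Klk8, a secreted serine protease like Htra3, was 61 and 88 in OSK-shSap30-D7, against 4 and 5 in OSK-D7, and Rin1, a Ras effector, was 274 and 372, against 64 and 23 in OSK-D7. Slco6d1 was 41 and 47 in OSK-shSap30-D7 and listed at 0 in both OSK-D7 libraries. Adamts9, a secreted metalloprotease, was 17 and 31, against 9 and 5 in OSK-D7.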

How the data were processed

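RNA was measured in 26 mouse libraries in 13 groups of 2. The deposited values are a normalised score made by the authors: sorted values differed by at most 2 between libraries at any rank, totals ran from 4619641 to 4624161, and the highest value was 21544 in each, so they were not treated as counts. The submitters' processing notes name bcl2fastq, Bowtie2, RSEM and the mm10 build, and the normalising step is not given in the sources used here. Libraries were made with a TruSeq RNA kit, per the labels' protocols. Depth is unknown, and no interval for counting error is given.

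Of the 18198 genes deposited, 18039 matched a symbol by Ensembl ID and 159 did not (positions are from GENCODE on GRCm38), and 0 sample columns were left unused. The 16038 genes that reached 10 in 2 or more libraries were tested. Values plus 1 were taken to log2, and limma 3.58.1 (R 4.3.3, statmod 1.5.0) was fitted to all 26 libraries with a mean per group, a variance trend and robust moderation, with Benjamini-Hochberg adjustment over all genes. A call needed an adjusted p below 0.05 and a log2 difference of at least 1. The fit was tested on simulated data. The 6 genes and all lists were chosen with earlier results of these data known. Named list genes were up to 3 called per list by smallest adjusted p, otherwise the most highly expressed, and 3 genes were named for likeness to each of the 6, leaving out model, clone and pseudogene symbols. Symbols were matched by name, and descriptions of what genes do are general knowledge. Summaries and figures used Python 3.11.15, pandas 2.3.3 and matplotlib 3.10.9. Alternatives changed the added number, filter, libraries, moderation and replicate block.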

Additional observations from a re-analysis of the deposited data

Results flagged for a closer look

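The change of Lrrc15 from day 0 to day 3 differed between cultures with and without added Jun, by 3.34 on the log2 scale (SE 0.61, adjusted p = 0.0129 from limma for the interaction). Lrrc15 was 88 and 103 in OSK-cJun-D3, against 135 and 119 in OSK-cJun-D0, and 7 and 9 in OSK-D3, against 170 and 84 in OSK-D0. All 4 day 0 libraries were above the OSK day 3 libraries, and the call depended on single libraries, as given with the result.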

How the results depend on the processing

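Counts of called genes held within 1.5 times under most alternatives. When only the compared libraries set the spread, limma called 0 genes for OSK-shSap30-D7 against OSK-D7 (3276 at unadjusted p under 0.05) and 0 for OSK-D0 against MEF (2499), and 522 for OSK-shSap30-D7 against OSK-cJun-D7, 1667 for OSK-D5 against OSK-D0 and 376 for iPSC against ESC, in place of 1580, 1120, 2267, 3152 and 998. These fits rest on 4 libraries each. With 0.1 added the interaction count of 179 became 110. Leaving out single libraries gave 512 to 1787 for OSK-shSap30-D7 against OSK-D7, 1459 to 2049 for it against OSK-cJun-D7, 629 to 1349 for OSK-D0 against MEF, 717 to 810 for OSK-cJun-D3 against OSK-D3 (1210 with all), 536 to 872 for iPSC against ESC and 62 to 92 for the interaction. The lone library of a group was then taken to vary like the others.

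Signs reversed only among uncalled values, when single libraries were left out: Fabp3 in OSK-D5 against OSK-D0 (-1.99 to 0.47), Bmp8b in iPSC against MEF (-0.29 to 1.29), Lrrc15 in iPSC against ESC (-0.54 to 0.14, with 0.02 without ESC replicate 1), Cntfr in the interaction (-1.35 to 0.24), and in OSK-shSap30-D7 against OSK-D7 Id3 (-1.76 to 0.18) and Cdh17 (-0.58 to 0.29, with 0.15 without OSK-shSap30-D7 replicate 1). The cause was not tested, and the Bmp8b range says nothing, since that gene passed the filter through the hairpin libraries alone. The labels do not pair equal replicate numbers, and 28 of 78 pairs of groups had deviations correlated above 0.1. With the replicate block, 1738 genes were called for OSK-shSap30-D7 against OSK-D7 and 216 in the interaction, and it changed the call of none of the 6 genes. Depth limits cannot be stated for these normalised values.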
